A study of Mus musculus with 8 samples.

Results

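The Gadd45 family consists of 3 mouse genes, Gadd45a, Gadd45b and Gadd45g, out of 18193 genes that the array annotation names with a single symbol. Every probe set carrying one of these symbols was kept. The family was chosen by its log2 levels over the 4 groups, seen in an earlier analysis of these arrays, and its members by their symbols. A probe set is the group of short array probes that together give 1 signal for a transcript. Gadd45a had 1 probe set (1449519_at), Gadd45b had 3 (1420197_at, 1449773_s_at and 1450971_at) and Gadd45g had 1 (1453851_a_at), which makes 5 of the 45101 probe sets on the array.

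Gadd45 proteins are small acidic nuclear proteins with no known enzymatic activity, which act by binding other proteins. They bind and activate the kinase encoded by Map3k4, upstream of the p38 and JNK stress kinases, and they bind the replication clamp Pcna, the cell cycle inhibitor p21 (Cdkn1a) and the mitotic kinase Cdk1. Gadd45a is a target of p53 and is also induced through BRCA1 in mammary cells, Gadd45b (first named MyD118) responds to TGF-beta and NF-kappaB, and Gadd45g (CR6) responds to cytokines.

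The signals came from 8 arrays of 7438 cells, a mouse mammary cell line with a green fluorescent glucocorticoid receptor (GFP-GR) and a cherry fluorescent estrogen receptor (Cherry-ER) under a tetracycline-regulated promoter. All groups, the untreated one included, had been kept in 10% charcoal-dextran serum for 48 hours and without tetracycline for the last 24 hours, the step that the protocol gives for inducing both fusion receptors, whose levels were not analysed here. The groups were untreated cells, cells given dexamethasone (Dex), a synthetic glucocorticoid, at 100 nM, cells given 100 nM estradiol (E2) and cells given 100 nM of each (Dex+E2), with hormones present for 2 hours and 2 arrays in each group. The free text of E2 replicate 2 and Dex+E2 replicate 1 speaks of a chromatin immunoprecipitation, whereas their titles and treatment labels give the expression groups used here. No label says that replicate arrays came from separate cultures, so every error and p-value describes the spread between these arrays, which may be technical.

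Between the arrays, correlations over all probe sets ran from 0.993 to 0.998, and Dex+E2 replicate 2 stood furthest from the rest, with a mean correlation of 0.9951. In that group 1249 probe sets differed by more than 0.5 log2 units between the replicates, against 92 to 305 in the other groups. The Dex treatment was visible in Tsc22d3, the glucocorticoid-induced leucine zipper, which rose by 2.82 ± 0.23 log2 units (SE; limma, Benjamini-Hochberg adjusted p = 0.000211), in Fkbp5, a chaperone partner of the receptor (1.62 ± 0.11), and in the clock gene Per1 (2.66 ± 0.13). The estrogen targets Greb1 (0.04 ± 0.11, adjusted p = 0.994) and Pgr (-0.0024 ± 0.11, adjusted p = 1) did not pass with E2. Their untreated means, 5.83 and 4.33, lay near or below the array medians of 5.58 to 5.66, so they say little about the E2 response. Per1 rose by 1.97 ± 0.13 with E2 too (adjusted p = 0.000589). Of the markers of the labelled mammary cells, 1 of 10 epithelial genes (Krt14) had a mean log2 signal of 7 or more, against 7 of 10 mesenchymal genes. Epithelial means ran from 3.25 for Cdh1, the epithelial cadherin, to 8.06 for Krt14, with Krt18 at 4.41 and Epcam at 6.84. Mesenchymal means ran from 5.59 for Thy1 to 13.95 for Col1a2, with Vim at 13.95 and Cdh2 at 10.69. None of the 15 measured milk protein, immune, endothelial and fat cell markers reached 7. Ptprc, Pecam1 and Adipoq, the lowest of their lists, lay at 3.87, 3.90 and 3.56. Cd3e, Kdr and Csn3, the highest of the immune, endothelial and milk lists, lay at 6.35, 6.40 and 6.42. These are signals of different probe sets, which do not rank the cell types.

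The sequences just upstream of the 3 genes are shown because Gadd45a lay on the opposite side of the untreated level from Gadd45b and Gadd45g in Dex-treated cells. Each is the 250 bases before the annotated start, 5′ to 3′ in the direction of the gene, from RefSeq on mouse assembly GRCm38.p6. Capitals mark matches, on either strand, to the octamer core TTTGCAT, the CCAAT box, the TATA box TATAAA and the E box CACGTG. Gadd45a lies at chr6:67037408-67037657 on the minus strand, Gadd45b at chr10:80929841-80930090 on the plus strand and Gadd45g at chr13:51846425-51846674 on the plus strand.
Gadd45a: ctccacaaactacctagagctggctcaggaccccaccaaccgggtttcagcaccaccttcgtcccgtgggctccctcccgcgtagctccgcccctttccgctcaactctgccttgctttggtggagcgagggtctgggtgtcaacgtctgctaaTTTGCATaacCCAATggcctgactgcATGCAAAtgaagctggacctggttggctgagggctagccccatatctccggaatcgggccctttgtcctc
Gadd45b: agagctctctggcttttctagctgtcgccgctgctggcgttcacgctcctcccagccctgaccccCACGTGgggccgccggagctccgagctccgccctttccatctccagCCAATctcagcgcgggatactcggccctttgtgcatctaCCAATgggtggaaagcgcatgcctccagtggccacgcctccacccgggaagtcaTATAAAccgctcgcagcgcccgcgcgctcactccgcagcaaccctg
Gadd45g: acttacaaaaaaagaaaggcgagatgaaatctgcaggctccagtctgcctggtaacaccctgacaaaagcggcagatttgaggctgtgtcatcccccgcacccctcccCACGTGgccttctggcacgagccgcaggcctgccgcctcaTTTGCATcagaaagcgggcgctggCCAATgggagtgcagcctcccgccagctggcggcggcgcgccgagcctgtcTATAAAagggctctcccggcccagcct

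The octamer core, a binding motif of POU-domain factors such as Oct-1, occurred 2 times in Gadd45a (first bases at -96 and -70 from the start) and 1 time in Gadd45g (-102), and is present in 4.12% of 32851 such windows of the RefSeq table. Gadd45b and Gadd45g each held the TATA box (-46 and -27), found in 12.4% of windows, and the E box (-185 and -142), found in 6.02%, while Gadd45a held neither. All 3 held at least 1 CCAAT box, as did 33.8% of windows. Neither the palindromic glucocorticoid response element GNACANNNTGTNC (0.387% of windows), nor its half-site TGTTCT (16.1%), nor the estrogen response element GGTCANNNTGACC (0.0639%), nor the serum response element core (1.47%) matched in any of the 3 windows, which says only that these letters are not there. No motif overlapped another. The octamer core and the E box were chosen after these sequences had been seen, and a match is a description of letters, not of a bound site. The part of these motifs in the Dex differences was not tested.

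The family split in Dex-treated cells: the Gadd45a signal was lower than in untreated cells, and those of Gadd45g and Gadd45b were higher. With E2 alone, the means of Gadd45b and Gadd45g lay between the untreated and Dex means and the Gadd45a arrays overlapped the untreated ones. With Dex+E2, the means of Gadd45a and Gadd45g were nearer to the untreated mean than with Dex alone, and that of Gadd45b was further from it on its 2 bright probe sets. Without Dex+E2 replicate 2, the distance from Dex shrank from -0.43 to -0.12 for Gadd45g and from 0.21 to 0.05 for Gadd45b 1450971_at. For Gadd45a it was 0.44, and 0.45 without that array. Since the family was selected on these levels, the differences are a description and carry no test. Values are log2 signals, in which 1 unit is a doubling, and absolute levels cannot be compared between probe sets. In RNA from a whole culture, fewer expressing cells and less RNA per cell cannot be told apart.

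**Figure D1:**
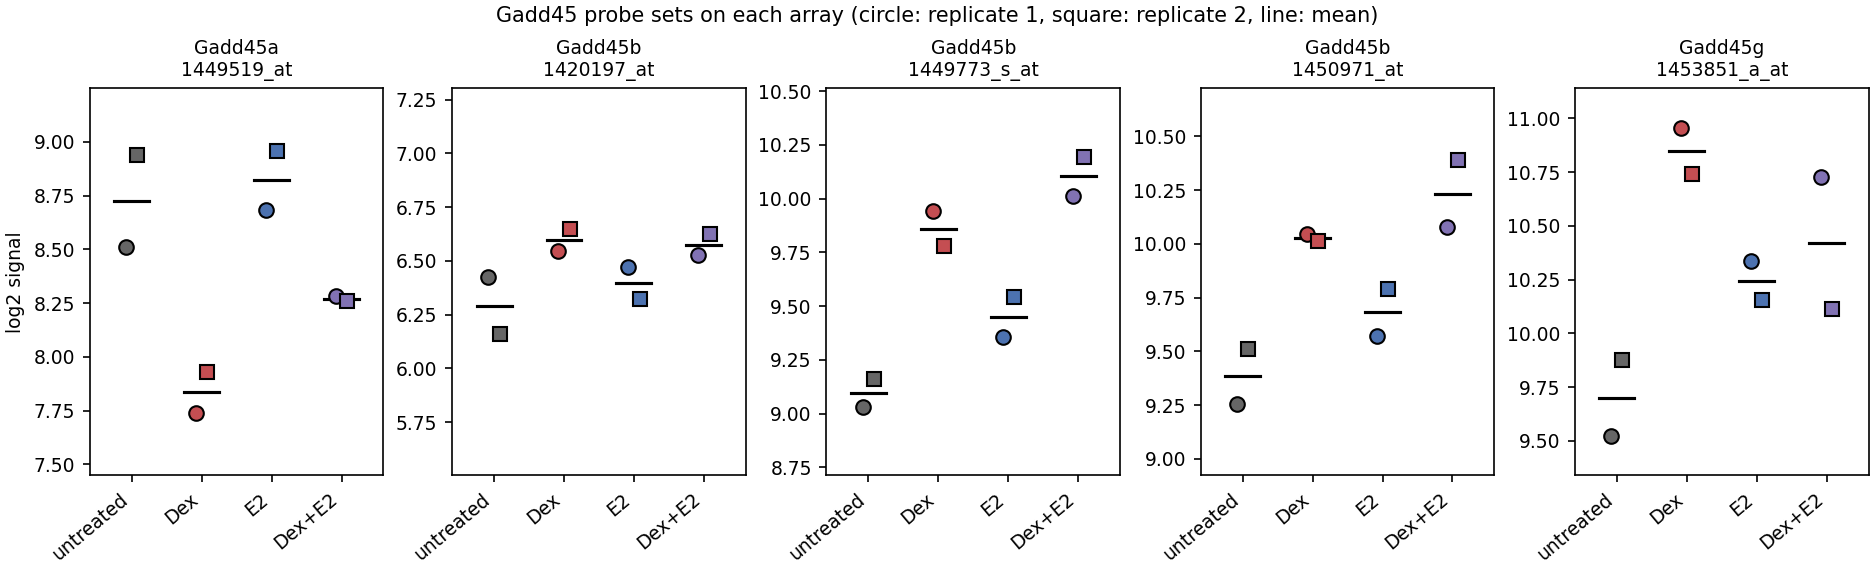
The log2 signal of each Gadd45 probe set (vertical axes, each spanning the same number of log2 units) on the 8 arrays by treatment (horizontal axis); circles and squares are replicates 1 and 2 and lines are group means. Gadd45a is lowest with Dex, at 7.74 and 7.93, where Gadd45g is highest, at 10.96 and 10.74.

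Gadd45a, the p53-responsive member, had log2 signals of 8.51 and 8.94 in untreated cells, 7.74 and 7.93 with Dex, 8.69 and 8.96 with E2, and 8.28 and 8.26 with Dex+E2. Both Dex arrays lay below every other array, both Dex+E2 arrays lay next above them, and the untreated and E2 arrays overlapped. In order, the group means were 7.84 ± 0.14 (SD, n = 2) with Dex, 8.27 ± 0.015 with Dex+E2, 8.72 ± 0.30 in untreated cells and 8.82 ± 0.19 with E2, of which the last 2 did not differ beyond their spread.

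Against untreated cells, Gadd45a was 0.89 ± 0.14 log2 units lower with Dex (difference -0.89, SE from the limma fit over all probe sets), or 1.85-fold lower, and the 4 pairings of a Dex with an untreated array gave differences from -1.20 to -0.58. This difference held rank 52 from the bottom of 45037 probe sets. With E2 it was 0.10 ± 0.14, from -0.25 to 0.45 over the pairings, so that no direction can be given. With Dex+E2 it was -0.45 ± 0.14, a 1.37-fold lower signal whose arrays did not overlap the untreated ones, and -0.24 without untreated replicate 2.

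Within Dex-treated cells, the addition of E2 went with a Gadd45a signal 0.44 ± 0.14 higher, and the 2 groups were separated by a gap of 0.33. That difference was 0.45 without Dex+E2 replicate 2. Within E2-treated cells, the addition of Dex went with a signal that was lower (difference -0.55 ± 0.14, and -0.54 without Dex+E2 replicate 2). The Dex difference was thus smaller in size with E2 than without it, by 0.34 ± 0.20 log2 units. That interaction value ranged from 0.13 without untreated replicate 2 to 0.55 without untreated replicate 1.

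Gadd45b, which binds Map3k4 and also the JNK-activating kinase encoded by Map2k7, was read by 3 probe sets. On 1449773_s_at its log2 signals were 9.03 and 9.16 in untreated cells, 9.94 and 9.78 with Dex, 9.36 and 9.54 with E2, and 10.01 and 10.19 with Dex+E2. The order was untreated, E2, Dex and Dex+E2, and no neighbouring groups overlapped. The gap between the Dex and Dex+E2 arrays, 0.07, was smaller than the SD within either of these groups (0.11 and 0.13).

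The probe set 1450971_at, the brightest of the 3 for this gene, gave the same order: 9.26 and 9.51 in untreated cells, 9.57 and 9.79 with E2, 10.05 and 10.01 with Dex, and 10.08 and 10.39 with Dex+E2. Here too the groups did not overlap, although untreated and E2 were separated by 0.06 and Dex and Dex+E2 by 0.03, both less than the larger SD of the groups concerned (0.18 and 0.22). Over the 8 arrays in 4 groups the 2 bright probe sets followed each other with r = 0.98, as a description.

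The remaining Gadd45b probe set, 1420197_at, was much dimmer. Its signals were 6.42 and 6.16 in untreated cells, 6.55 and 6.65 with Dex, 6.47 and 6.32 with E2, and 6.53 and 6.62 with Dex+E2. Dex and Dex+E2 arrays lay above the untreated ones, E2 arrays overlapped them, and the whole range over 8 arrays was 0.49 log2 units, against 1.16 for 1449773_s_at and 1.13 for 1450971_at. Its mean level stood at percentile 62.2 of all probe sets, where those of the others stood at 89.4 and 90.6.

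With Dex, the Gadd45b difference from untreated was 0.76 ± 0.11 on 1449773_s_at (1.70-fold), 0.64 ± 0.13 on 1450971_at (1.56-fold) and 0.30 ± 0.11 on 1420197_at (1.23-fold). With E2 the differences were 0.35 ± 0.11, 0.30 ± 0.13 and 0.10 ± 0.11 in the same order. With both hormones they were 1.01 ± 0.11 (2.01-fold), 0.85 ± 0.13 (1.80-fold) and 0.28 ± 0.11 (1.22-fold). The probe sets thus differed in the size of each difference and not in its sign, with 1 exception: without untreated replicate 2, the E2 difference of 1420197_at was -0.029. Without that array its differences with Dex and Dex+E2 were 0.17 and 0.15. The E2 difference of 1450971_at was 0.17 without untreated replicate 1 and 0.19 without E2 replicate 2.

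Gadd45b with Dex+E2 was above Dex alone by 0.24 ± 0.11 on 1449773_s_at and 0.21 ± 0.13 on 1450971_at, while the difference was -0.02 ± 0.11 on 1420197_at. Without Dex+E2 replicate 2 the first 2 values were 0.15 and 0.05, so that array carried most of the distance on 1450971_at. Against E2 alone, Dex+E2 was 0.65 ± 0.11, 0.55 ± 0.13 and 0.18 ± 0.11 higher. The interaction of the 2 hormones was -0.11 ± 0.15, -0.09 ± 0.18 and -0.12 ± 0.15 in the same order, each smaller than its SE, and on 1450971_at it was above 0 without untreated replicate 1, E2 replicate 2 or Dex+E2 replicate 1 (0.037, 0.02 and 0.066).

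Gadd45g, the cytokine-responsive member, had log2 signals of 9.52 and 9.88 in untreated cells, 10.96 and 10.74 with Dex, 10.33 and 10.16 with E2, and 10.73 and 10.12 with Dex+E2. Both Dex arrays were the highest and both untreated arrays the lowest. The Dex+E2 arrays lay far apart, with replicate 1 just under the lower Dex array and replicate 2 below both E2 arrays. Its group means were 9.70 ± 0.25 (SD, n = 2), 10.25 ± 0.13 with E2, 10.42 ± 0.43 with Dex+E2 and 10.85 ± 0.15 with Dex, and E2 and Dex+E2 did not differ beyond their spread.

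The Dex difference of Gadd45g was the largest in the family, 1.15 ± 0.19 log2 units (2.22-fold), with pairings from 0.86 to 1.43 and rank 81 from the top of 45037. With E2 it was 0.55 ± 0.19 (1.46-fold; rank 128), without overlap. With both hormones it was 0.72 ± 0.19 (1.65-fold), but 1.03 without Dex+E2 replicate 2 and 0.42 without Dex+E2 replicate 1.

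Relative to Dex alone, Gadd45g was lower with Dex+E2 (difference -0.43 ± 0.19), with the closest arrays only 0.0125 apart. Without Dex+E2 replicate 2 the difference was -0.12, and without replicate 1 it was -0.73. Relative to E2 alone it was 0.18 ± 0.19 higher, 0.48 without Dex+E2 replicate 2 and -0.13 without replicate 1. The interaction was -0.97 ± 0.26, and -0.67 without Dex+E2 replicate 2, which stands apart from the other arrays over all genes as well. In the limma fit the interaction passed for 0 of the 5 members, with a lowest adjusted p of 0.881. Of all probe sets 0.00222% passed (1 of 45037). An unadjusted limma p under 0.05 was reached by 1 of the 5, and by 2459 of all 45037 probe sets.

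**Figure D2:**
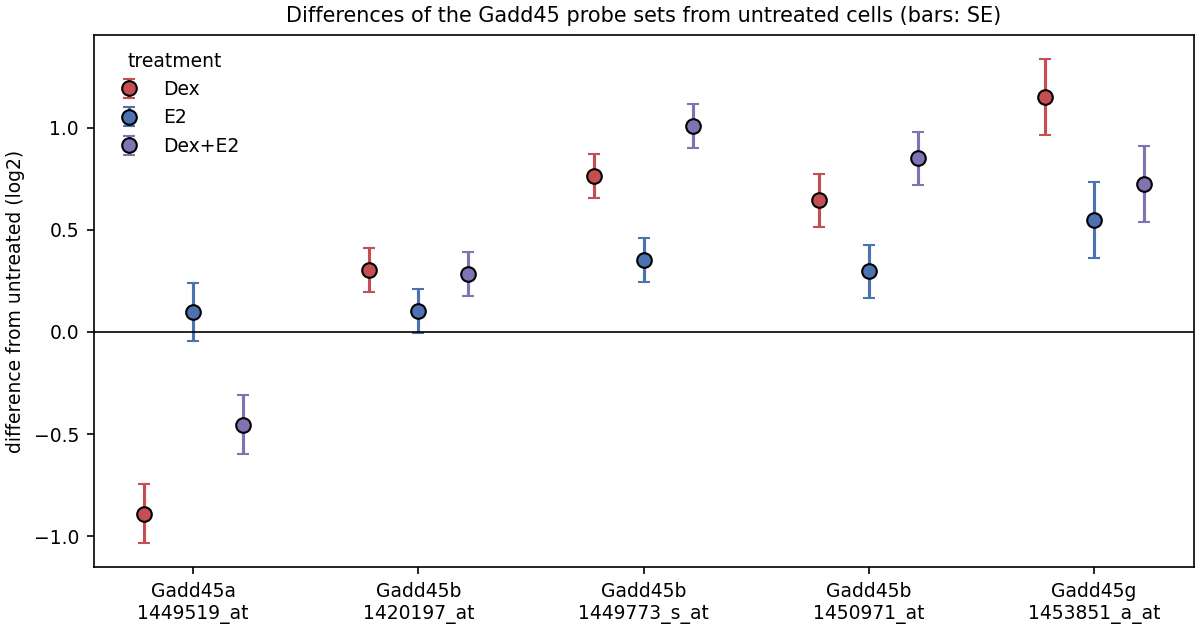
Differences from untreated cells (vertical axis, log2 units) for the 5 probe sets (horizontal axis) with Dex, E2 and Dex+E2; bars are standard errors from the limma fit, with 2 arrays a group. Gadd45a lies below 0 with Dex (-0.89) and Dex+E2 (-0.45), and the Gadd45b and Gadd45g probe sets lie above 0 in every treatment.

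In the fit over all 45037 probe sets, 3 of the 5 members passed a Benjamini-Hochberg adjusted p under 0.05 with Dex (Gadd45a lower, Gadd45b 1449773_s_at and Gadd45g higher), where 0.924% of all probe sets passed, 0.575% higher and 0.349% lower. With E2 0 of 5 passed in limma, against 0.0355% of all. An unadjusted limma p under 0.05 with E2 was reached by 3 of the 5, and by 2439 of all 45037 probe sets. With Dex+E2 2 passed, the bright Gadd45b probe sets, both higher, against 0.844% of all in either direction and 0.471% higher. Since the members were proposed from these contrasts, nothing is read from the counts. Arrays did not overlap untreated ones for 4 members higher and 1 lower with Dex (17.2% and 17.5% of all probe sets), 3 higher with E2 (16%), and 4 higher and 1 lower with Dex+E2 (16.6% and 16.4%). The 3 comparisons share the untreated arrays, and 3 of the 5 members counted here are probe sets of 1 gene, Gadd45b.

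Several of these calls changed when 1 array was left out. Such a fit has 1 array left in a group, and a lost call does not by itself single out the array. Gadd45g lost the Dex call whichever of the 4 arrays compared was left out, with differences from 0.97 to 1.33. Gadd45a lost it without untreated replicate 2 or either Dex array, and Gadd45b 1449773_s_at lost it without untreated replicate 1 or Dex replicate 1. Gadd45b 1450971_at gained the Dex call without either Dex+E2 array, and in most other settings, and lost the Dex+E2 call without untreated replicate 1 or Dex+E2 replicate 2, or with only the 4 arrays compared. Gadd45g gained the Dex+E2 call without Dex+E2 replicate 2.

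**Figure D3:**
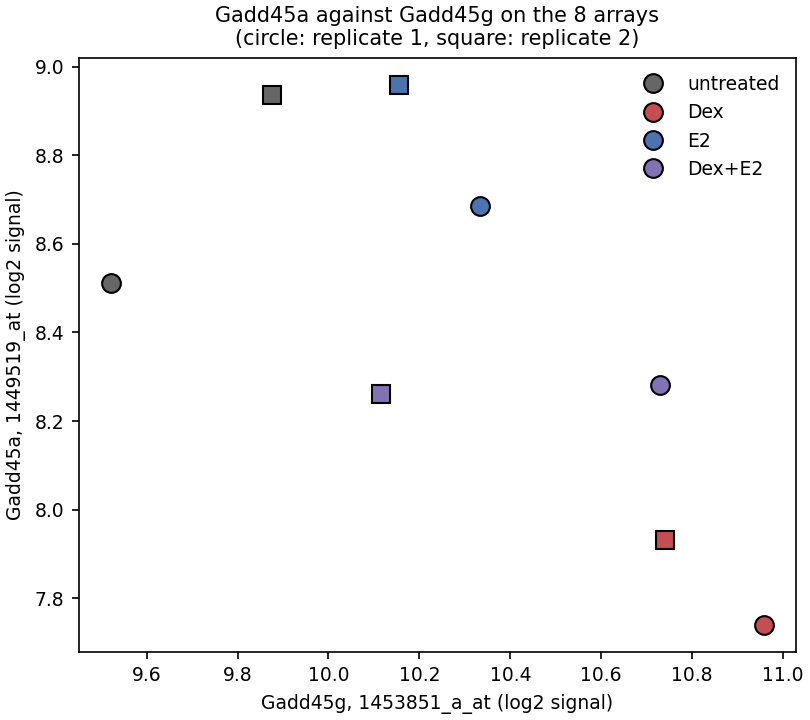
The log2 signal of Gadd45a (vertical axis) against that of Gadd45g (horizontal axis) on each of the 8 arrays, coloured by treatment, with circles for replicate 1 and squares for replicate 2. Dex arrays sit at the lower right (Gadd45a 7.74 and 7.93, Gadd45g 10.96 and 10.74), untreated arrays at the upper left, and Dex+E2 replicate 2 (8.26 and 10.12) combines a low Gadd45a with a Gadd45g signal below that of the E2 arrays.

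For each gene, the 4 genes with the most similar profile were sought among those with a mean log2 signal of 7 or more and a range of at least 0.5 of the member's own, by Pearson correlation over the 8 arrays, given as a description since arrays of a group share a treatment. For Gadd45a, out of 579 candidates, these included Traf4, a signalling adaptor (r = 0.97), Pik3cb, a catalytic subunit of phosphoinositide 3-kinase (0.95), and Insig1, a brake on sterol synthesis (0.95). Traf4 had 8.05 and 8.27 in untreated cells, 7.63 and 7.72 with Dex, 8.10 and 8.44 with E2, and 7.88 and 8.02 with Dex+E2, the order seen for Gadd45a.

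For Gadd45b (1450971_at, 730 candidates) they were Lrrc8a, a subunit of volume-regulated anion channels, Sox9, a transcription factor, Herpud1, a protein of endoplasmic reticulum quality control, and Pim3, a serine/threonine kinase, all with r = 0.96. Pim3 went from 10.01 and 10.00 in untreated cells through 10.49 and 10.83 with E2 and 11.06 and 10.91 with Dex to 11.16 and 11.36 with Dex+E2. Those nearest to Gadd45g, among 349 candidates, were Hrct1 (0.97), Foxred2 (0.96), Zc3h12c, an RNase of the regnase family (0.95), and Apobec1, a cytidine deaminase (0.95). Zc3h12c shared the wide spread of Gadd45g with Dex+E2, with 8.44 on replicate 1 and 7.74 on replicate 2.

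Of 9 measured MAP kinase partners, through which Gadd45 proteins act, 0 passed in limma with Dex, E2 or Dex+E2, and 0 had an unadjusted p under 0.05 in any of the 3, where 1.29%, 0.066% and 1.19% of all genes passed when each gene was read by its brightest probe set. The shares of all genes at an unadjusted p under 0.05 were 5.89%, 5.5% and 7.78%, and these and the shares called are the background for the lists that follow. The partners' median differences were 0.019, -0.0009 and -0.0505, beside 0.0041, -0.011 and 0.008 over all genes. Map3k4, the kinase that Gadd45 proteins activate, had 9.77 and 9.71 in untreated cells and 9.81 and 9.72 with Dex, a difference of 0.02 ± 0.08. The p38 kinase gene Mapk14 differed by 0.07 ± 0.09 with Dex.

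Among 12 measured cell cycle and DNA partners, Cdkn1a was the only one called, higher with each treatment. Its log2 signals were 10.23 and 10.32 in untreated cells, 12.22 and 12.19 with Dex, 11.26 and 11.70 with E2, and 12.32 and 12.60 with Dex+E2, so that no group overlapped the untreated one. It rose by 1.93 ± 0.14 with Dex (adjusted p = 9.89e-05), by 1.21 ± 0.14 with E2 (adjusted p = 0.019) and by 2.18 ± 0.14 with Dex+E2 (adjusted p = 6.64e-05). The E2 call was lost with only the 4 arrays compared (adjusted p = 0.0525) and without either untreated array, either Dex array or E2 replicate 2, with adjusted p from 0.00117 to 0.46 over 17 settings. Cdk1 differed by 0.01 ± 0.09 with Dex and Pcna by -0.02 ± 0.08. The list medians were -0.0019 with Dex, 0.039 with E2 and -0.0031 with Dex+E2.

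Of 22 measured p53 targets, 2 rose and 2 fell with Dex, against 1.29% of all genes called, with a median of -0.017. Beside Cdkn1a, Sesn1, a stress-induced inhibitor of mTOR signalling, rose by 0.97 ± 0.09 (adjusted p = 0.000431). Plk2, a polo-like kinase, fell by 1.47 ± 0.20 (adjusted p = 0.00449), but its difference was -0.68 (adjusted p = 0.122) with the mean of its probe sets. Bbc3, which encodes the death protein PUMA, fell by 0.54 ± 0.10 (adjusted p = 0.0363). Mdm2, the ubiquitin ligase that limits p53, differed by 0.05 ± 0.09. Gadd45a and Bbc3 were thus lower in the Dex group in which Cdkn1a and Sesn1 were higher.

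With E2, 1 p53 target rose (Cdkn1a) and 0 fell, against 0.066% of all genes called. That Cdkn1a call was lost in several settings, as given above. The list median with E2 was 0.034, with 3 members at an unadjusted limma p under 0.05, against 5.5% of all genes. With Dex+E2, Cdkn1a and Sesn1 (0.57 ± 0.09, adjusted p = 0.0149) rose and Plk2 fell by 1.76 ± 0.20 (adjusted p = 0.00149), against 1.19% of all genes called, with a list median of -0.024. With the mean of probe sets Sesn1 was at 0.39 (adjusted p = 0.135) and Plk2 at -0.74 (adjusted p = 0.0791).

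Among 17 measured factors known to act upstream of Gadd45 genes or of p53 family targets, 2 rose with Dex and 2 with Dex+E2. Of all genes 1.29% and 1.19% were called there, in either direction. None passed with E2 in limma, where 3 had an unadjusted p under 0.05, against 5.5% of all genes. The medians were -0.015, 0.066 and 0.012 in that order. Foxo3, a transcription factor of stress resistance, rose by 0.91 ± 0.11 with Dex (adjusted p = 0.00179) and by 0.95 ± 0.11 with Dex+E2 (adjusted p = 0.00143). Cebpb, another transcription factor, rose by 1.18 ± 0.12 (adjusted p = 0.000859) and 1.17 ± 0.12 (adjusted p = 0.00108). The NF-kappaB subunit gene Rela differed by -0.05 ± 0.09 with Dex, Smad3 by -0.03 ± 0.08 and Brca1 by -0.03 ± 0.09. Myc, a repressor of growth-arrest genes, was at -0.59 ± 0.20 with Dex (adjusted p = 0.51) and -0.99 ± 0.20 with Dex+E2 (adjusted p = 0.0544), and did not pass. These last 4 were named after their values were seen.

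The early stress-response list split in direction. Of its 17 genes, 6 rose and 3 fell with Dex (median 0.032), 5 rose and 5 fell with Dex+E2 (median 0.067), and 0 passed with E2 in limma (median -0.0057), where 9 had an unadjusted p under 0.05. Of all genes, 1.29% were called with Dex, 1.19% with Dex+E2 and 5.5% had an unadjusted p under 0.05 with E2. Dusp1, which inactivates the stress kinases that Gadd45 proteins feed, rose by 2.54 ± 0.14 with Dex (adjusted p = 2.24e-05), the mRNA decay factor Zfp36 rose by 2.06 ± 0.16 (adjusted p = 0.000125) and the NF-kappaB inhibitor Nfkbia rose by 1.57 ± 0.14 (adjusted p = 0.00032). The kinase gene Sgk1, a known glucocorticoid target, rose by 1.31 ± 0.14 (adjusted p = 0.00084) and the AP-1 gene Fos by 1.20 ± 0.21 (adjusted p = 0.0259). Klf10, a TGF-beta-inducible repressor, fell by 1.93 ± 0.16 (adjusted p = 0.000177) and Ier3 fell by 1.04 ± 0.10 (adjusted p = 0.000612). With Dex+E2, Jun fell by 0.94 ± 0.14 (adjusted p = 0.011).

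A further list of 6 genes held Ddit3 and Ppp1r15a of the original growth-arrest and DNA-damage screen, and Ppp1r15b, Ddit4l, Chac1 and Trib3. Of these 1 fell with Dex and 1 with Dex+E2, where 1.29% and 1.19% of all genes were called. With E2 0 passed, and 2 had an unadjusted limma p under 0.05, against 5.5% of all genes. The medians with Dex, Dex+E2 and E2 were -0.25, -0.14 and 0.046. Ddit3 (GADD153), a transcription factor of the integrated stress response, fell by 0.58 ± 0.10 with Dex (adjusted p = 0.0236). Ppp1r15a (GADD34), which restores translation after stress, differed by -0.16 ± 0.11. Chac1, a glutathione-degrading enzyme of the same response, fell by 0.53 ± 0.10 with Dex+E2 (adjusted p = 0.033).

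Several of these list calls were lost when 1 array was left out, which leaves 1 array in its group. Fos, Ddit4, Btg1 and Bbc3 lost the Dex call whichever of the 4 arrays compared was left out, and Bbc3 also without either E2 array. Plk2 lost it without either untreated array or Dex replicate 2, and Ddit3 without untreated replicate 2 or either Dex array. With Dex+E2, Jun, Trib1, Sesn1 and Chac1 lost the call without either untreated array or Dex+E2 replicate 2, Ier5 and Btg1 without either untreated array, Sgk1 without untreated replicate 1, and Chac1 also without either Dex array. Ier3, Jun, Ddit4, Btg1, Ier5 and Trib1 were named after their values were seen. With the replicate block, Bbc3 lost the Dex call (adjusted p = 0.0757) and Trib1 and Chac1 the Dex+E2 call (0.0517 and 0.0711). With only the 4 arrays compared, Sesn1, Trib1, Chac1 and Btg1 lost the Dex+E2 call, with adjusted p from 0.0629 to 0.156. Of the 10 mesenchymal markers, 9 were lower with Dex and 0 were called in limma. An unadjusted limma p under 0.05 was reached by 2, against 5.89% of all genes. With E2 7 were lower, 0 of them called and 0 at an unadjusted p under 0.05. With Dex+E2 8 were lower and 1 was called, the transcription factor gene Twist1 (-0.47, adjusted p = 0.0426), named after its value was seen. Only 1 had an unadjusted limma p under 0.05 there, against 7.78% of all genes. Of all genes 1.29%, 0.066% and 1.19% were called with Dex, E2 and Dex+E2. In the same order, 5, 6 and 3 of the 10 epithelial markers were lower, and 3, 4 and 1 of the 4 milk markers, with 0 called. The summed log2 signal of the mesenchymal list was 94.70 to 95.51 in untreated cells, 93.90 to 94.14 with Dex, 94.06 to 95.05 with E2 and 94.14 to 94.26 with Dex+E2. The part of these markers in the Gadd45 values was not tested.

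**Figure D4:**
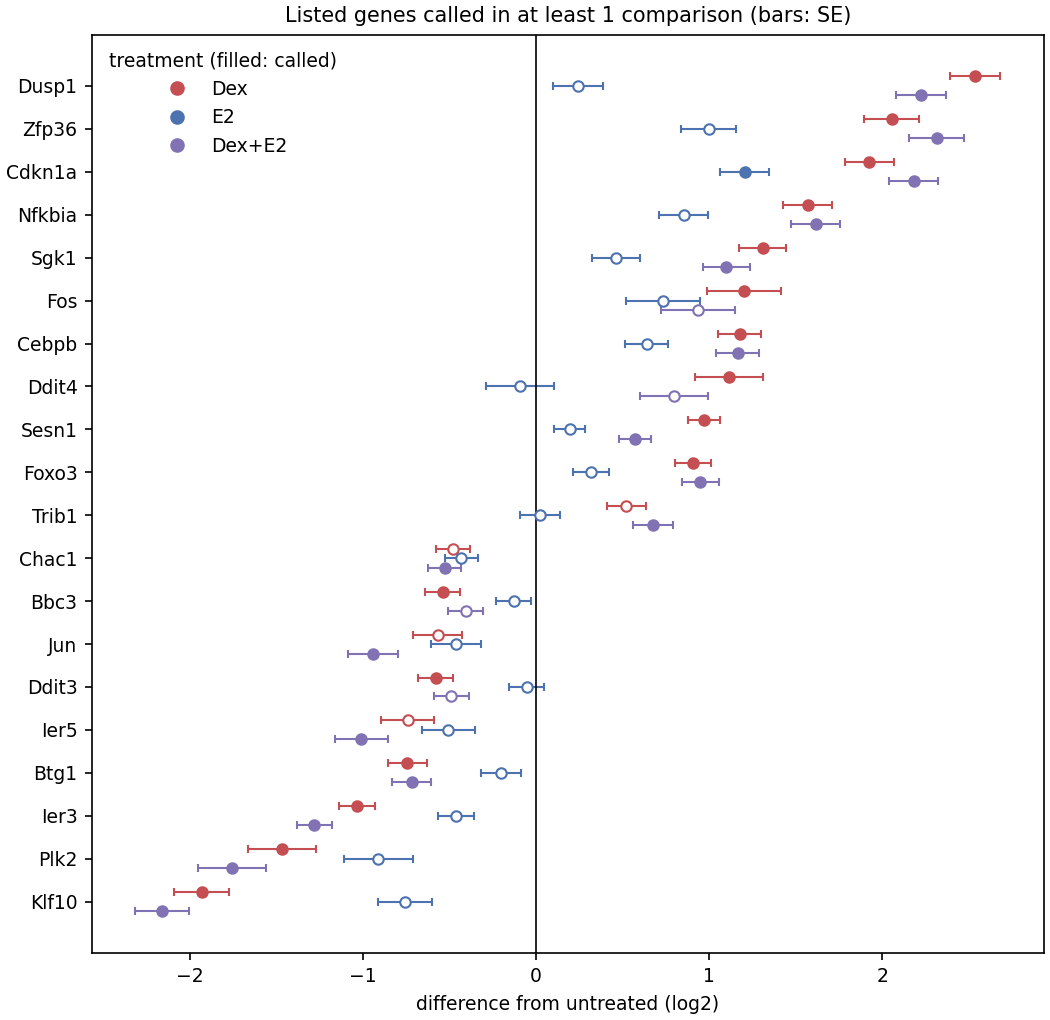
Differences from untreated cells (horizontal axis, log2 units) with Dex, E2 and Dex+E2 for the 20 listed genes (vertical axis) called in at least 1 comparison; bars are standard errors and filled points passed an adjusted p under 0.05. Cdkn1a is the 1 gene filled with E2, at 1.21, and Plk2 and Klf10 lie furthest below 0 with Dex, at -1.47 and -1.93.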

How the data were processed

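The deposited table holds log2 values, made by the authors with RMA (background subtraction, equalised array distributions, probe summary) in Affymetrix Expression Console, per the submitters' processing notes, which give no version. RMA compresses changes of dim probe sets. Array medians ran from 5.58 to 5.66. Groups came from the titles. Symbols came from the platform annotation (34958 probe sets with 1 symbol, 932 with several, 9211 with none), of which 34754 matched RefSeq (GRCm38.p6) by Entrez number. The 64 control probe sets were left out, and limma 3.58.1 (R 4.3.3) fitted 4 group means to 45037 probe sets on all 8 arrays (4 residual and 6.29 prior degrees of freedom), with Benjamini-Hochberg adjustment over all of them. Precision is set by the 2 arrays a group (median standard error 0.102). On simulated arrays for Dex the script called 87% of probe sets changed by 1 log2 unit and 100% of those changed by 2, with 7 false calls. The simulation gave each probe set 1 spread in all groups and held no smaller changes, so it does not cover Gadd45 differences below 1 log2 unit.

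Listed genes were read by their brightest probe set; 10 of the 127 genes on the pathway and marker lists had no probe set with 1 symbol and are not analysed here (Trp53, Map2k7 and Ccnb1 among them). Named genes are all members, up to 6 called genes a list, a few chosen by role, and the 4 most similar profiles per member, of which 1 for Gadd45a is not reported here; others are marked. Members, lists and tests were chosen with earlier results of these data known. Alternatives were other probe set rules, a minimum mean log2 of 5, another prior, 2 scalings, a replicate block and leaving out arrays. Replicate numbers were not used to pair arrays.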

Additional observations from a re-analysis of the deposited data

Results flagged for a closer look

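Gadd45g (1453851_a_at) is singled out because its E2 difference had opposite directions without and with Dex: both E2 arrays (10.33 and 10.16) lay above both untreated arrays (9.52 and 9.88), and both Dex+E2 arrays (10.73 and 10.12) lay below both Dex arrays (10.96 and 10.74). The difference between these effects, -0.97 ± 0.26 log2 units (SE), did not pass in the limma fit over all probe sets, where the lowest adjusted p of the 5 members was 0.881 and 1 of 45037 probe sets was called. It was -0.67 without Dex+E2 replicate 2 and -1.28 without Dex+E2 replicate 1. The E2 difference within Dex-treated cells was -0.43 ± 0.19, and -0.12 without Dex+E2 replicate 2, and the closest arrays of these 2 groups were 0.0125 apart. Of all 45037 probe sets, 5.88% showed such opposite directions without overlap.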

How the results depend on the processing

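Over the 17 other settings against untreated, and those added after seeing the data for the remaining contrasts, 10 of 338 values of the 30 Gadd45 differences changed sign, all of them on leaving out 1 array and all in differences that were not called. Without single arrays, differences from untreated ran from -1.10 to -0.68 (Dex) and -0.67 to -0.24 (Dex+E2) for Gadd45a and from 0.42 to 1.03 for Gadd45g with Dex+E2, and interaction values ran from 0.13 to 0.55 for Gadd45a, -0.26 to 0.0087 for Gadd45b 1420197_at and -1.28 to -0.67 for Gadd45g. Probe sets called numbered 416 with Dex, 16 with E2 and 380 with Dex+E2, and 170 to 498, 3 to 37 and 169 to 1436 without single arrays, the highest without Dex+E2 replicate 1. With 1 probe set per gene the Dex count was 267, and with probe sets averaged per gene 269, with 237 for Dex+E2; fewer features are tested there. The E2 count was 46 with a trended and robust prior and 25 after quantile normalization, and the Dex+E2 count was 222 with only the 4 arrays compared; the cause was not tested. Listed genes called numbered 16, 1 and 16, and 10 to 20, 0 to 2 and 9 to 19 without single arrays; for E2 they were 2 with the mean of probe sets, 4 with the other prior and 0 with only the 4 arrays. With the replicate block the counts were 372, 15 and 338. Replicate differences correlated positively in the 3 pairs among untreated, Dex and E2 (0.16 to 0.31) and negatively in the 3 pairs with Dex+E2 (-0.25 to -0.11), so the numbers as given were not taken to pair the arrays. With the Dex+E2 numbers crossed the block gave 529, 46 and 559 probe sets and 2 listed genes with E2. That setting was not planned and follows the signs of these same correlations, so nothing is read from its higher counts. The 2 arrays a group limit every value.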
